A study of Drosophila melanogaster with 4 samples.

Results

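The odorant binding proteins of Drosophila melanogaster were followed through 50 probe sets of an Affymetrix array, those whose single annotated gene symbol begins with Obp and a digit, out of 18769 probe sets other than controls. These probe sets stand for 47 genes, since Obp19a, Obp19c and Obp59a have 2 probe sets each. RNA came from whole bodies of larvae of the third instar that had been raised at 25 °C. Control larvae carried the C564-Gal4 driver with UAS-GFP, and experimental larvae carried the same driver with UAS-Gyc76C, which encodes a receptor guanylate cyclase; all larvae thus carried the driver and a transgene under its control. The labels place the Gyc76C overexpression in fat body, which stores nutrients and secretes immune peptides, while the RNA is that of the entire animal; the driver is also known to be active in other larval tissues, such as hemocytes. There were 2 arrays per genotype, called biological replicas. No source used here gives the sex or the number of larvae per array. The p-values set the genotype difference against the variation between these arrays, moderated over all probe sets tested. They do not cover variation beyond these arrays.

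Odorant binding proteins are small secreted proteins held together by disulphide bridges, with a pocket that takes up hydrophobic molecules. In sensory hairs, support cells release them into the fluid around the dendrites of chemosensory neurons, where they carry or buffer odorants and pheromones for the receptors. The family takes in classic members, plus-C members with additional conserved cysteines, minus-C members that lack a conserved pair, and dimer members with a repeated binding domain. Many members are also made outside sense organs, for instance in the gut, fat body, glia and male accessory glands of the fly, and a fly larva has few olfactory neurons, in the dorsal organ of its head.

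The label of the experimental group was checked on the overexpressed gene, Gyc76C. Its brightest probe set, whose annotation names CG42637 as well, had signals of 1047 and 928 on the control arrays and 16050 and 20993 on the Gyc76C arrays (log2 fold change 4.22, SE 0.17, limma adjusted p = 5.79e-05). The others with that annotation were dim and lower with Gyc76C, one at 91.9 and 64.9 against 9.42 and 30.6 (log2 fold change -2.19, SE 0.81, adjusted p = 0.0951) and one, not tested, at 17.0 and 14.6 against 2.43 and 4.69; how the probes lie relative to the transgene is not stated. Signals are MAS5 intensities on a linear scale that the authors had brought to a common mean; the trimmed mean was 500.02 on each of the 4 arrays. Over the 11261 probe sets tested, the median log2 fold change was -0.16, so values near it describe a gene that moved with the bulk of the array. Fat body markers were bright in both genotypes, and Orco, the obligate co-receptor of odorant receptors, stayed near the lower end of the measurable range, at 24.4 and 63.2 on the control and 58.1 and 34.9 on the Gyc76C arrays.

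In whole larvae a minority of the family gave a clear signal. Probe sets entered the test with a mean signal over all arrays of 46.3 or more, which is the 40th percentile. This held for 19 of the 50 members (38%), against 60% of all probe sets by construction of the filter. Of these 19, 15 were at or above 46.3 on every array, and 7 had mean signals over 1000, namely Obp99b, Obp56d, Obp44a, Obp99c, Obp56a, Obp99a and Obp83g. The member just inside the limit was Obp50d with a mean of 50.2, and the one just outside was Obp19d with 44.1. Signals of different probe sets depend on their probes, so they are given per gene and are not ranked as amounts of RNA.

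**Figure D1:**
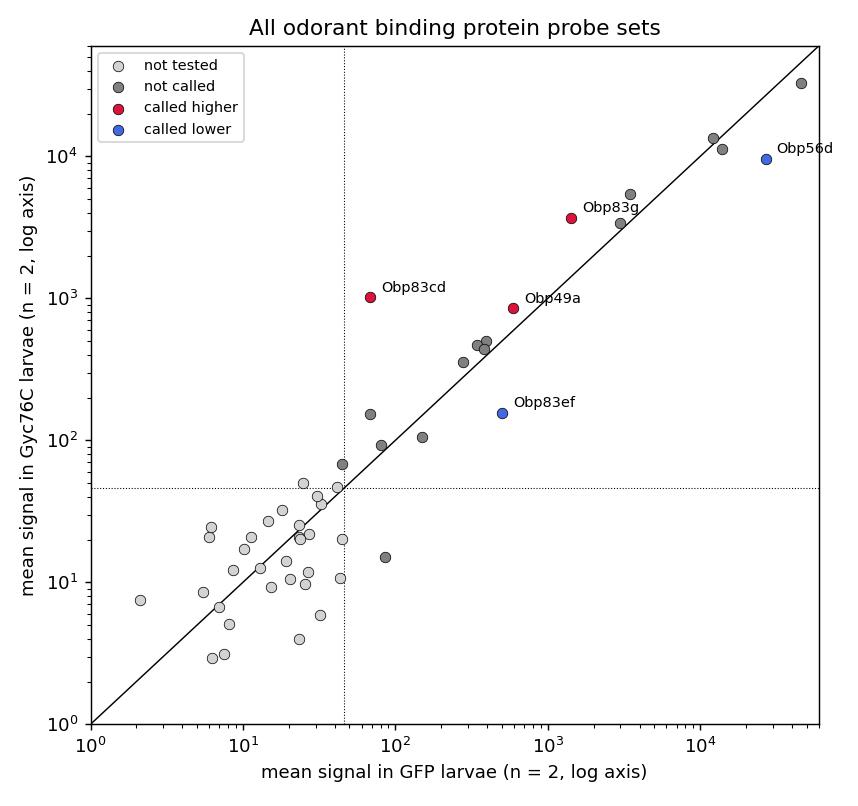
Mean signal in Gyc76C larvae against mean signal in GFP larvae for all 50 odorant binding protein probe sets, on log axes with n = 2 arrays each; the solid line marks equal signals and dotted lines mark 46.3. The 31 members that were not tested scatter widely at low signals, and the 5 called members lie off the line of equality, Obp83cd farthest.

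Replicate arrays matched closely for bright members and poorly for dim ones. Among the 19 tested members the ratio between the higher and the lower replicate had a median of 1.16 and reached 4.0, for Obp83cd in GFP larvae. Among the 7 members over 1000 it did not exceed 1.51. For the 31 members under the limit the median ratio was 2.02 and the highest was 28.3.

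The genotypes were compared to find transcripts that differ under overexpression of the cyclase. Among the odorant binding proteins, Obp83cd, Obp83g and Obp49a rose, and Obp56d and Obp83ef fell, at a limma adjusted p under 0.05. In RNA of whole animals fewer cells of a type and less RNA per cell cannot be told apart. The calls were 3 of 19 higher (15.8%) and 2 of 19 lower (10.5%), beside 11.3% higher and 13.3% lower among all probe sets tested. The total of 5 (26.3%) lies near the 24.6% called over the whole array, so the number of calls does not set the family apart. At an unadjusted p under 0.05 there were 5 members higher (26.3%) and 4 lower (21.1%), beside 16.2% and 23.5% of all probe sets tested. With each array centred on its median the split was 4 higher and 1 lower, and over all probe sets the share of calls that were higher went from 45.9% to 62.7%.

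Small shifts leaned upward. Of the 19 tested members 13 had a positive log2 fold change and 6 a negative one (68.4% positive, against 40% of all tested probe sets), and the median was 0.22 where that of all tested probe sets was -0.16. The lower Gyc76C array exceeded the higher GFP array in 11 members (57.9%, against 26.9% of all tested probe sets) and the reverse held in 6 (31.6%, against 41.4%), while the groups overlapped in Obp56h and Obp99a. The median of the members is a description of these 19 values, and most of them did not pass the test on their own.

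**Figure D2:**
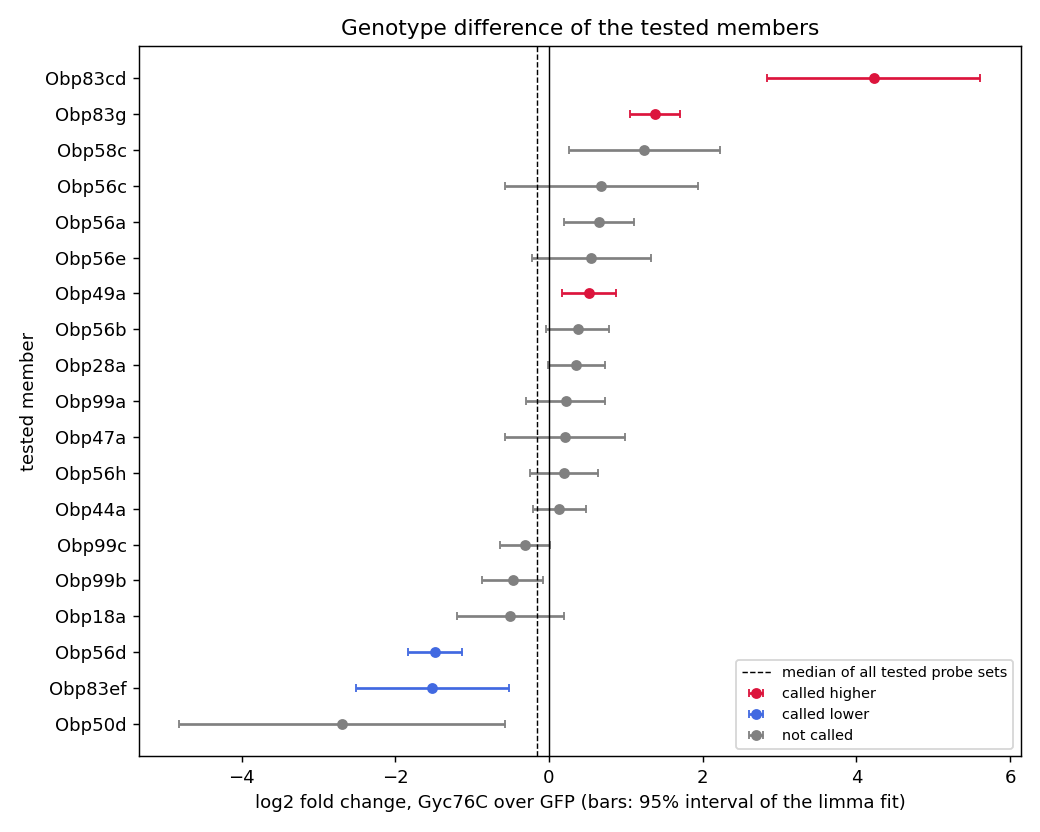
Log2 fold change of each tested member, Gyc76C over GFP, with the 95% interval of the limma fit; the dashed line is the median of all tested probe sets, -0.16. Obp83cd at 4.22 and Obp83g at 1.38 have the highest values, and Obp56d at -1.49 has the narrower interval of the 2 members called lower; Obp50d, under 46.3 on both Gyc76C arrays, is drawn as measured.

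A run of 3 called members lies together on the chromosome, with 0 other genes between them in the RefSeq gene table. Obp83cd and Obp83ef are dimer members of the family, and Obp83g follows them. All 3 were tested and all 3 passed, in opposite directions: the outer genes Obp83cd and Obp83g rose and the middle gene Obp83ef fell.

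Obp83cd had signals of 27.3 and 109 on the control arrays and 1095 and 949.6 on the Gyc76C arrays. It was near the lower limit in the control larvae, with 1 array under 46.3, and well above it on both experimental arrays, without overlap. With that array raised to 46.3 the gene was 14.3-fold higher (log2 fold change as measured 4.22, SE 0.58, adjusted p = 0.00442). The call held in all 13 other settings, with values from 3.22 without GFP replicate 1 to 5.22 without GFP replicate 2.

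Obp83g gave 1542 and 1311 on the control arrays and 3715 and 3686 on the Gyc76C arrays. The Gyc76C arrays were nearly equal, and both stood well above the GFP arrays. The rise was 2.60-fold (log2 fold change 1.38, SE 0.14, adjusted p = 0.00144) and was called in all 13 other settings.

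Obp83ef went the other way, with 279 and 725 on the control arrays against 156 and 158 on the Gyc76C arrays. The experimental arrays were alike and lay under both control arrays, which differed 2.60-fold between themselves. The signal fell 2.86-fold on average (log2 fold change -1.52, SE 0.42, adjusted p = 0.0417). This call is weak: without GFP replicate 2 the value was -0.83 (adjusted p = 0.0616), without Gyc76C replicate 1 it was -1.50 (0.0876), without Gyc76C replicate 2 it was -1.53 (0.0593), and without GFP replicate 1 it was -2.21 (0.000281). It also ended with centred arrays (adjusted p = 0.0508) and when the variance prior had no mean trend (0.115).

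The annotated spans of Obp83cd and Obp83ef overlap in the RefSeq gene table, and no source used here says where the probes sit within them. In GFP larvae both genes were higher on the replicate 2 array, 4.0-fold for Obp83cd and 2.60-fold for Obp83ef. The ecdysone response genes had the same tilt, with 11 of 15 higher on that array and a median ratio of 2.61. Of these genes 9 of 14 tested fell with Gyc76C, unlike Obp83cd. Among cuticle markers Lcp65Af, TwdlN, TwdlP and TwdlE were higher on that array, and the dim Ccp84Ag and Vajk1 were lower. Lcp65Af, TwdlN and TwdlP rose with Gyc76C. Only 5 of the 19 tested members were higher on GFP replicate 2, and the share of all probe sets was not counted. What part this difference between the control arrays has in the changes of Obp83cd and Obp83ef was not tested.

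**Figure D3:**
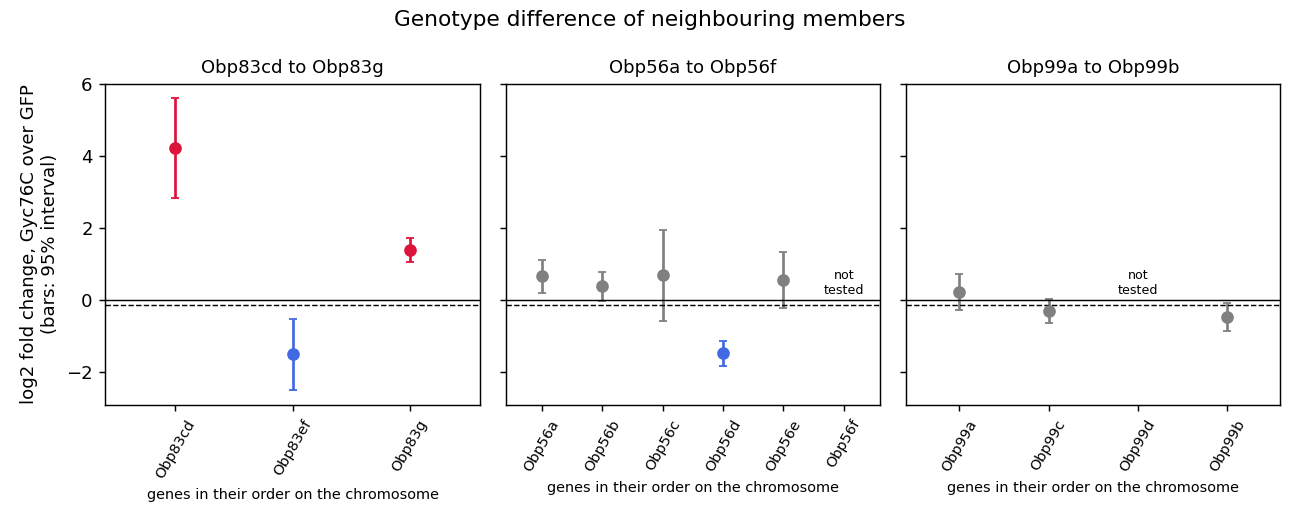
Log2 fold change (Gyc76C over GFP, with 95% intervals) of neighbouring members in their order on the chromosome, for the runs Obp83cd to Obp83g, Obp56a to Obp56f and Obp99a to Obp99b; the dashed line is the median of all tested probe sets. In the first run the middle gene is at -1.52 between neighbours at 4.22 and 1.38, and in the second run Obp56d is at -1.49 while the 4 other tested genes are above 0.

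The Obp56 genes form the longest run of the family, 6 neighbours from Obp56a to Obp56f, of which 5 were tested. Obp56d, a classic member known from chemosensory organs of the fly, had signals of 28725 and 25235 on the control arrays and 9132 and 10131 on the Gyc76C arrays. The groups were far apart compared with the spread within them, and Obp56d fell 2.80-fold (log2 fold change -1.49, SE 0.15, adjusted p = 0.0014). This call held in all 13 other settings, between -1.58 and -1.33.

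The 4 other tested genes of this run had positive log2 fold changes, and limma called 0 of them, with Obp56a alone at an unadjusted p under 0.05 (0.0127). Obp56a gave 4083 and 2880 on the control arrays and 5797 and 5000.4 on the Gyc76C arrays, with all Gyc76C values above all GFP values. Its log2 fold change of 0.65 (SE 0.19, adjusted p = 0.051) narrowly missed the threshold, and it was called in 6 of the 13 other settings, among them centred arrays (0.81, adjusted p = 0.0319) and the fit without GFP replicate 1 (0.90, adjusted p = 0.00246). The value was lower without GFP replicate 2 (0.40, adjusted p = 0.0886) and without Gyc76C replicate 1 (0.54, 0.226), and neither was called. Obp56e had 462 and 225 on the control arrays and 478 and 465 on the Gyc76C arrays, so 1 control array matched the experimental ones (log2 fold change 0.55, SE 0.32, adjusted p = 0.254). The estimate was 0.031 without GFP replicate 2 and 1.07 without GFP replicate 1, where the adjusted p was 0.00357.

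Obp56b and Obp56c had log2 fold changes of 0.37 and 0.68 (adjusted p = 0.158 and 0.373). Obp56f, at the far end of the run, was under 46.3 on every array. In a second run, Obp56g to Obp56i, only Obp56h was tested. Obp56h, which modulates mating behaviour in adult flies, had 431 and 337 on the control arrays and 454 and 419 on the Gyc76C arrays, and the groups overlapped (log2 fold change 0.20, SE 0.18, adjusted p = 0.467).

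The Obp99 run and Obp44a are minus-C members, and apart from Obp99d they had mean signals over 1000. Obp99b, known for expression in the fat body of the adult head and for a difference between the sexes there, gave 46105 and 44974 in GFP larvae. In Gyc76C larvae it gave 29587 and 36447, below both control arrays but with a wider gap between replicates. The log2 fold change of -0.47 (SE 0.16, adjusted p = 0.081) was not called, and the 95% interval ran from -0.87 to -0.08. The GFP signals of Obp99b lay close to the highest signal on those arrays, 48092 and 48176, where the scale has little room above. The highest signals on the Gyc76C arrays were lower, 36748 and 43588. What part the top of the scale has in the value of Obp99b was not tested. After quantile normalization Obp99b was called (-0.20, adjusted p = 0.0463), and without Gyc76C replicate 2 its value was -0.62.

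Obp99c had signals of 13650 and 14336 on the control arrays and 10736 and 11822 on the Gyc76C arrays. The groups did not overlap, but the difference was small (log2 fold change -0.31, SE 0.13, adjusted p = 0.135), and it was called after quantile normalization alone (-0.44, adjusted p = 0.0234). With centred arrays the values of Obp99b and Obp99c were -0.31 and -0.15, still negative and not called. Obp99a gave 3582 and 2378 on the control and 3702 and 3107 on the Gyc76C arrays, with overlapping groups (log2 fold change 0.22, SE 0.21, adjusted p = 0.484). Its direction changed without GFP replicate 2 (-0.079), and without GFP replicate 1 it was called (0.51, adjusted p = 0.0328). Obp99d, between Obp99c and Obp99b on the chromosome, was dim, with 32.9 and 28.4 on the control and 41.0 and 39.96 on the Gyc76C arrays.

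Obp44a, made by glia of the larval nervous system, showed no call. It had signals of 12109 and 12184 on the control arrays and 12246 and 14544 on the Gyc76C arrays. The log2 fold change was 0.14 (SE 0.14, adjusted p = 0.519), and its 95% interval from -0.21 to 0.48 limits any change at this precision. Glial markers did not move as a block: of 8 measured, moody rose, loco and Gs2 fell, and repo, the defining transcription factor of glia, had a log2 fold change of 0.28 (adjusted p = 0.47).

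**Figure D4:**
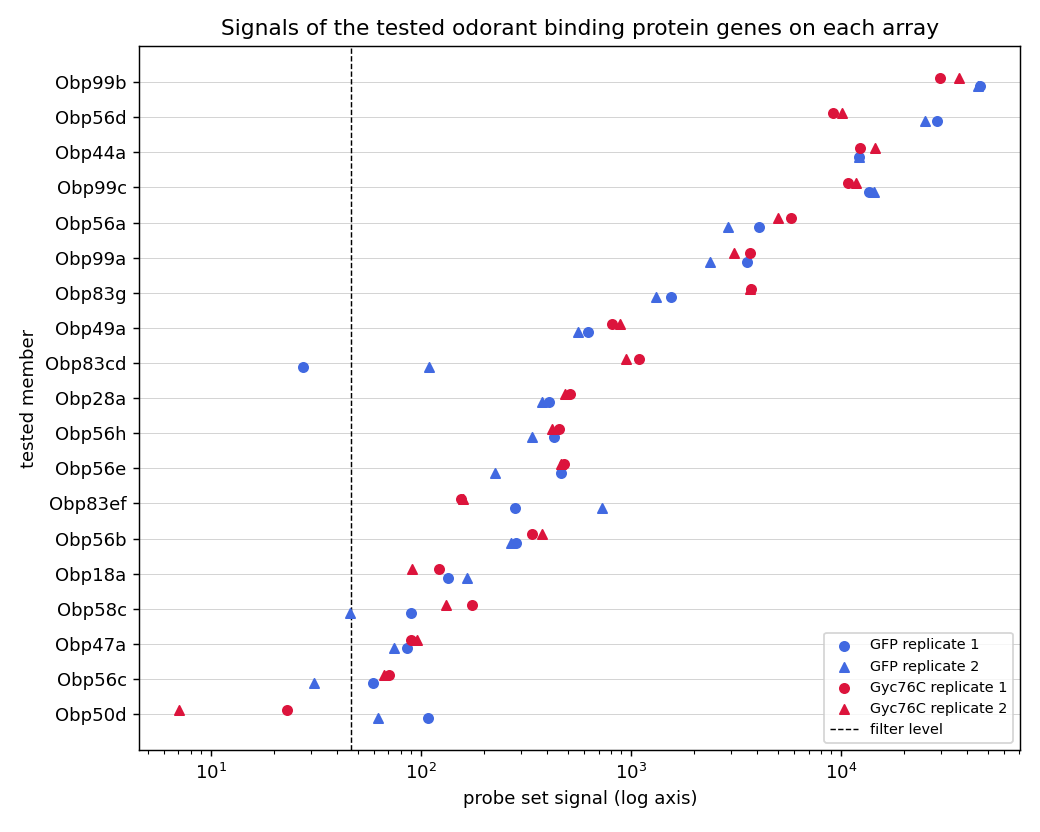
Signal of each of the 19 tested members on each array (log axis; circles replicate 1, triangles replicate 2, blue GFP, red Gyc76C); the dashed line is the filter level of 46.3, and rows are ordered by mean signal for display. Red and blue points are well apart for Obp83cd, Obp83g, Obp56d and Obp83ef, and they lie close together for Obp44a and Obp28a.

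The third member that rose was Obp49a, a plus-C protein that in adult taste hairs is needed for bitter compounds to suppress the response to sugar. It had signals of 624 and 559.7 on the control arrays and 815 and 886 on the Gyc76C arrays. The groups were separate, with a modest 1.44-fold difference (log2 fold change 0.52, SE 0.15, adjusted p = 0.0438). The call ended without GFP replicate 2 (0.45, adjusted p = 0.062), without Gyc76C replicate 1 (0.58, 0.189), without Gyc76C replicate 2 (0.46, 0.247), with a variance prior that had no mean trend (0.105) and when no filter was set (0.0532).

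Plus-C members other than Obp49a were dim. Obp58c had 90.0 and 45.8 on the control and 174 and 132 on the Gyc76C arrays (log2 fold change 1.24, SE 0.41, adjusted p = 0.0705). Obp50d had 108 and 62.5 on the control arrays and 23.02 and 7.07 on the Gyc76C arrays, so both experimental arrays were under 46.3. With those raised to that level Obp50d was 1.78-fold lower (log2 fold change as measured -2.69, SE 0.89, limma adjusted p = 0.0692). Neither was called, though their groups did not overlap; they were chosen once their values were known. Obp58c was called after quantile normalization (1.40, adjusted p = 0.0495), with the replicate block (1.24, 0.0437) and without GFP replicate 1 (1.73, 0.019), and it was 0.75 without GFP replicate 2 (0.194). Obp50d was called with a pseudocount of 16 (-1.72, adjusted p = 0.0429) and without Gyc76C replicate 1 (-3.54, 0.0322), but had -0.83 with low signals raised to 46.3 (0.126). The plus-C genes Obp46a, Obp47b, Obp50a, Obp50e, Obp58b, Obp58d, Obp85a and Obp93a were not tested.

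Obp28a, a classic member known from the larval and adult olfactory organs, gave 407 and 375 on the control arrays and 515 and 484 on the Gyc76C arrays. Replicates were close and the groups separate, yet the difference did not pass (log2 fold change 0.35, SE 0.16, adjusted p = 0.141). The 2 tested members still to be named, Obp18a and Obp47a, had log2 fold changes of -0.50 and 0.20 (adjusted p = 0.243 and 0.675). Obp18a had signals of 134 and 165 on the control and 122 and 90.6 on the Gyc76C arrays, and Obp47a stayed between 74.2 and 95.2 on all 4 arrays.

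The 31 members under the limit had signals from 0.904 to 68.4, with a median of 15.5, and 26 of them were under 46.3 on every array. Among them were members known from adult olfactory sensilla, such as Obp69a, Obp83b, Obp84a and Obp19d, and members found in male seminal fluid, such as Obp22a, Obp51a, Obp56g and Obp8a. Obp59a, required for humidity sensing in adult flies, had mean signals of 6.88 and 4.57 on its 2 probe sets. In 6 of these members both Gyc76C arrays were above both GFP arrays, in 7 they were below, and in 18 the groups overlapped. These shares of 19.4% and 22.6% stand beside 18% and 18.5% of all probe sets under the limit. In a fit over all 18769 probe sets without the filter, limma called 0 of the 31, with 2 at an unadjusted p under 0.05, and 3 of the 19 others. Over bright and dim probe sets together 12.2% were called. The shares among all probe sets under the limit, at either threshold, were not counted. A signal this low does not show that a transcript is absent, since MAS5 assigns a value to every probe set and detection calls were not used here.

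By position, the tested members were spread over the family. The RefSeq gene table lists 51 genes with an Obp symbol, 36 of them in 10 runs of neighbours with at most 5 other genes between successive members, and 15 alone. Of the 19 tested genes 14 lay in runs and 5 alone. The 5 calls came from Obp83cd, Obp83g and Obp83ef in 1 run, Obp56d in another, and Obp49a, which stands alone. The runs Obp19a to Obp19d, Obp57c to Obp57a, Obp57e to Obp57d and Obp83a to Obp83b had no tested member.

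Chemosensory receptor genes in the same larvae had low signals, nearly all with means under 46.3. Of 57 odorant receptor genes and 56 gustatory receptor genes with a probe set 0 were tested, the highest mean signals being 46.25 and 45.5. In a limma fit without the filter 0 of either group were called, and 3 of each had an unadjusted p under 0.05. That fit called 12.2% of bright and dim probe sets together, and the shares among dim ones were not counted. Of 53 ionotropic receptor genes 1 was tested, Ir76a, with 143 and 130 on the control and 33.1 and 36.4 on the Gyc76C arrays. Both Gyc76C arrays were under 46.3, so Ir76a entered the test only through its control signals. With both Gyc76C values raised to 46.3 it was 2.94-fold lower (log2 fold change as measured -1.97, SE 0.38, limma adjusted p = 0.0134). The value was -1.91 without GFP replicate 1 and -2.04 without GFP replicate 2, and the call held in neither.

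Among 21 genes for other carrier proteins of chemosensation or their relatives, 6 were tested and 2 rose, beside 11.3% of all probe sets tested. With 6 tested genes this count does not set the list apart, and without the filter 1 was called. EbpIII, which encodes a protein of the adult ejaculatory bulb related to insect chemosensory proteins, rose 2.30-fold, from 1710 and 1196 to 3200.3 and 3376 (log2 fold change 1.20, SE 0.19, adjusted p = 0.00663). Jhbp1, named for juvenile hormone binding, rose 2.00-fold from 579 and 1067 to 1647 and 1495 (log2 fold change 1.00, SE 0.28, adjusted p = 0.0427). The log2 fold change of Jhbp1 was 0.56 without GFP replicate 1, and its call ended without Gyc76C replicate 1 (adjusted p = 0.139) or Gyc76C replicate 2 (0.0694). The pheromone carrier gene lush, also an odorant binding protein by sequence, was dim, at 3.17 and 26.04 on the control and 6.27 and 5.25 on the Gyc76C arrays.

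Markers of tissues and of developmental timing moved in the same comparison, in which 11.3% of all probe sets tested rose and 13.3% fell. Of 8 fat body markers 2 rose and 2 fell, and their summed signal was 136622 to 140064 in GFP and 95837 to 112222 in Gyc76C larvae. Bright genes carry that sum, and the median log2 fold change of these markers was -0.21, near the -0.16 of all tested probe sets. Fbp1 fell from 34606 and 38681 to 10611 and 14729, while Apoltp rose from 740 and 648 to 3088 and 3668. Of 15 ecdysone response genes, which follow the moulting hormone, 14 were tested and 9 fell, with sums of 29964 to 37215 against 8145 to 8408. Of 12 salivary gland markers 10 fell, with sums of 193353 to 208935 against 19593 to 22562. Of 6 epidermal and cuticle markers 3 rose, with sums of 754 to 1722 against 14089 to 15870. The part of any of these in the changes of the odorant binding protein genes was not tested.

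Other tissues gave calls in both directions or none. By limma 0 of 4 tested neuronal markers (6 measured) were called, with elav alone at an unadjusted p under 0.05, and 1 of 6 midgut markers rose and 1 fell. Of 5 tracheal markers 1 rose and 1 fell, and of 8 markers of hemocytes, the blood cells of the fly, 2 rose and 3 fell. Summed signals in GFP and Gyc76C larvae were 1342 to 1350 and 1420 to 1447 for neurons, and 65512 to 77823 and 75717 to 85819 for midgut. For trachea they were 19257 to 23692 and 28575 to 28685, and for hemocytes 12376 to 15775 and 18289 to 18949. Such sums are carried by the bright genes of a list, and the median log2 fold change was -0.05 for neurons, 0.06 for midgut, 0.43 for trachea and -0.01 for hemocytes.

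**Figure D5:**
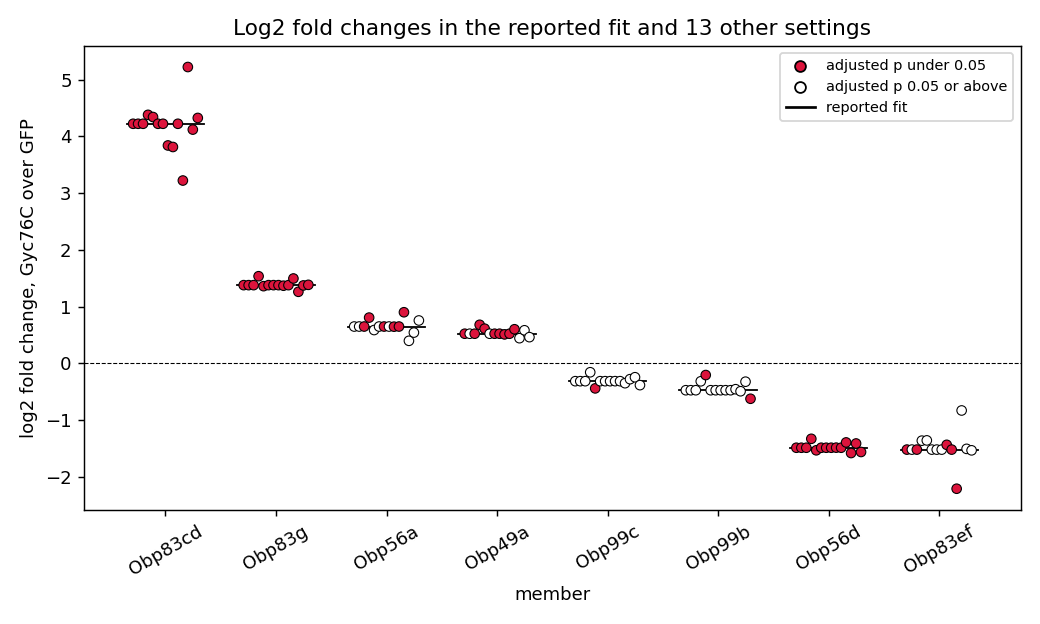
Log2 fold changes (Gyc76C over GFP) of 8 members in the reported fit (bar) and in that fit and 13 other settings (points, filled where the adjusted p is under 0.05). The points of Obp83cd, Obp83g and Obp56d are filled throughout, while those of Obp83ef, Obp49a, Obp56a, Obp99b and Obp99c are mixed.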

How the data were processed

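The authors deposited probe set intensities, linear and positive, which came from MAS5 according to the submitters' processing notes (per the labels, no version). No source used here names the genome build of the annotation. Of 18952 probe sets, 183 control probe sets were left out. Genes were named from the platform annotation, and all 50 members were found by Entrez number in the RefSeq gene table (Release 6), with 0 differing symbols. Control probe sets aside, 13647 probe sets had 1 symbol, 402 several and 4720 none.

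Signals were put on the log2 scale with no pseudocount. Probe sets with a mean of at least 46.3 over the 4 arrays, the 40th percentile, were compared by limma 3.58.1 in R 4.3.3 (lmFit and eBayes with a mean trend, 2 residual and 4.64 prior degrees of freedom), two-sided, with Benjamini-Hochberg adjustment over all 11261. Folds are ratios of geometric means. Where signals under 46.3 enter, they were raised to that level, and the fold is an estimate rather than a lower limit. The fit was also run on simulated data with independent noise and changes in a small part of the probe sets. That setting differs from these data, so no conclusion here rests on it. The correlation of same-numbered arrays' deviations from their genotype means was 0.04, and no label gives a shared batch, so the replicate number was not used in the reported fit. Every called member was named, as were the 8 uncalled members with the highest mean signals; lists of related genes and markers count each gene by its brightest probe set. The members and lists were chosen with earlier results of these data known. Alternatives were other filters, scalings, variance priors, a floor, a pseudocount of 16, a replicate block and leaving out each array. Sequences of the members were not analysed here. The number of arrays limits the precision, with a median standard error of 0.19 over the tested members and 0.21 over all tested probe sets.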

Additional observations from a re-analysis of the deposited data

How the results depend on the processing

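Obp83cd, Obp83g and Obp56d kept their direction and their call in all 13 other settings. Members called lower numbered 1 instead of 2 without the filter, with centred arrays and without a mean trend. The same held with a robust variance and with low signals raised to 46.3. Each time the call lost was that of Obp83ef. Quantile normalization lost it too, though 3 others were called lower there, Obp56d, Obp99b and Obp99c. Leaving out GFP replicate 2 or either Gyc76C array also lost the call of Obp83ef. The median log2 fold change of the tested members was 0.37 with centred arrays and 0.42 after quantile normalization. Without a mean trend 1241 probe sets were called over the array and 1 gene of the related lists instead of 3. Leaving out 1 array at a time gave 2 to 7 members higher (7 without GFP replicate 1), 1 to 2 lower, a median of 0.10 to 0.41, 1204 to 3350 calls over the array (1204 without Gyc76C replicate 1) and 2 in the related lists each time. Obp99a ranged from -0.079 without GFP replicate 2, a change of sign, to 0.51 without GFP replicate 1. With the replicate block 5 members were higher and 3101 probe sets were called; the labels give the arrays only a shared number. Obp83ef lost its call in 9 of the 13 settings, Jhbp1 in 6, Obp49a in 5 and EbpIII in 1. Ir76a lost its call in 2 of the 12 settings that tested it. The causes were not tested. Dim members lie where replicate signals scatter most, and 2 arrays a genotype limit what can be called.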

Other observations

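Some probe sets carry an Obp symbol together with another gene and were not counted as members. The brighter of the 2 annotated to Obp57d and Cpr57A, a cuticle protein gene, had signals of 5770 and 4599 on the control arrays and 4058 and 3865 on the Gyc76C arrays, lower on both experimental arrays but not called (log2 fold change -0.38, SE 0.15, limma adjusted p = 0.112). The dimmer one had 181 and 58.9 against 53.3 and 41.9 (log2 fold change -1.13, SE 0.59, adjusted p = 0.203). The 2 probe sets shared by Obp50b and Obp50c, whose annotated spans overlap, stayed between 43.3 and 68.9 on all arrays, with log2 fold changes of 0.19 and -0.36 (adjusted p = 0.771 and 0.603).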
